A study of Rattus norvegicus with 6 samples.

Results

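The cytosolic ribosomal proteins (RPs) are the protein components of the ribosome that translates nuclear-encoded mRNA. Members were chosen by gene symbol alone: a probe set (the group of array oligonucleotides that reads 1 transcript) counted when the platform annotation gave it a single symbol of the Rpl, Rps, Rplp or Rpsa form. S6 kinases, pseudogenes and mitochondrial RPs were left out. The rule found 48 genes of 14217 named ones, 33 of the large and 15 of the small subunit, carried by 55 of 31042 probe sets. Each gene is given by the probe set with the highest mean over the 6 arrays. Against a textbook list of 80 core cytosolic RPs, 42 members were core proteins and 6 were not (Rpl26l1, Rpl39l1, Rpl3l, Rpl7l1, Rps27l and Rps4y2). A further 27 core RPs were read by 36 probe sets that carry several symbols, which are described apart.

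The samples were pancreatic beta cells of male Wistar rats aged 10 weeks, sorted by flow cytometry (FACS) and snap frozen at once. Beta cells were isolated either after a 24 h fast (3 isolates) or from rats fed ad libitum (3 isolates), each isolate being prepared on its own from 5 pooled rats. The rats carried no allele or agent that the labels mention. The labels give 92 ± 3% insulin-positive cells after sorting, so other cells remained in every isolate. Values are linear intensities from 1 short-oligonucleotide array per isolate, and the number of arrays limits the precision.

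The ribosome consists of a small subunit, which reads the mRNA, and a large subunit, which joins amino acids. Each subunit carries its own set of RPs around a core of ribosomal RNA, and both sets are made in step with that RNA. RP transcripts are very abundant and long-lived, and most begin with a C followed by a run of pyrimidines, the 5′ terminal oligopyrimidine (TOP) motif. Through this motif nutrients and the kinase complex mTORC1 control chiefly how well the transcripts are translated. An array reads the amount of RNA and not its translation. In beta cells, translation serves proinsulin synthesis above all, which nutrients drive.

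The start site windows of the 9 genes that passed unadjusted p under 0.05 and were in the RefSeq promoter table are shown because a pyrimidine run at the start is known of RP genes, and these 9 differ in how far they have one. Each is 30 bases, 15 before and 15 from the annotated start of transcription, read 5′ to 3′ on the gene's strand, from RefSeq on build GRCr8, with the longest run of C and T in capitals.
Rpl24 (chr11:58128391-58128420, minus strand): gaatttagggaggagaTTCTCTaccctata
Rpl5 (chr14:1995211-1995240, minus strand): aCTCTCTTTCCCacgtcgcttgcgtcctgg
Rps6 (chr5:106420526-106420555, minus strand): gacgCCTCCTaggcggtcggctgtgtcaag
Rpl14 (chr8:129163605-129163634, plus strand): gggcgggCCCTCTCCCTTCTCgctgagcgc
Rpl34 (chr2:221962269-221962298, minus strand): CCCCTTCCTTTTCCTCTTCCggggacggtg
Rpl35a (chr11:81235007-81235036, minus strand): gcgggtcttgCCTTCCTCTTTCCgccatct
Rps9 (chr1:74430423-74430452, minus strand): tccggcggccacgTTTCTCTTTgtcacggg
Rpl26l1 (chr10:17029014-17029043, minus strand): aaatgtcaTTTCCgggcctgcgcacacacc
Rpl39l1 (chr10:5966607-5966636, minus strand): actgccaggccgTCCCgctatcctggtgtg

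The longest run was 20 bases in Rpl34 and 14 in Rpl14, against 5 in Rpl26l1 and 4 in Rpl39l1. Promoters of 43 of the 48 genes were matched, 41 by gene number and 2 by symbol (Rpl37a and Rps9). A run of at least 8 pyrimidines lay in the window of 25 of the 43 RP genes (58.1%), against 11.4% of all 27457 promoters in the table. The median longest run was 9 bases in the RP genes and 4 in all promoters. A C at the start itself followed by at least 4 pyrimidines was found in 12 of 43 RP genes (27.9%), against 2.63% of all promoters. Both criteria were set after the windows had been seen, and an annotated start can lie some bases from the start used in these cells.

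The core RPs and the other members differed in this respect. Of 37 core genes with a promoter, 24 had a run of at least 8 (64.9%), with a median run of 9, while 1 of the 6 genes outside the core list did (Rps4y2), with a median of 5. Searched on both strands over the 300-base promoters, the ETS factor motif CCGGAAG was present in 10 of 43 RP promoters (23.3%, against 9.22% of all promoters). The YY1 motif AAGATGGC was present in 4 (9.3%, against 3.44%), and TATAAA in 6 (14%, against 14.3%). A match describes letters and is not evidence of binding.

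In both states the RP transcripts stood among the brightest on the array. Of the 48 genes, 33 lay above the 99th percentile of all probe sets, which is 33 of the 311 probe sets found there. No member had a mean between 107 and 967, and 38 genes lay above this gap and 10 below it, so an intensity of 500 was used afterwards to divide them. Intensities of different probe sets depend on their oligonucleotides, and no order of transcript number is drawn from them. Rps29, a small zinc-binding protein of the small subunit, had the highest values, 4288, 4199 and 4035 in fasted beta cells, against 3948, 3857 and 4194 in fed beta cells. These ranges overlapped.

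In the deposited values, most RP transcripts stayed within narrow bounds after fasting. For 37 of 48 genes the 95% confidence interval of the fold change lay inside 1.5-fold in either direction. The same held for 4012 of all 31042 probe sets, and for 653 of the 1001 probe sets over 500 that are no member. The median residual SD was 0.09 on the log2 scale for the members and 0.43 for all probe sets, and dimmer probe sets vary more. The median log2 change (fasted over fed) was 0.09, with quartiles of -0.04 and 0.18. The median of all probe sets was -0.20, so that RP transcripts lay 0.29 above it. A positive change was seen in 34 genes (34.6% of all probe sets were positive) and a negative one in 14 (65.4% of all probe sets).

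**Figure D1:**
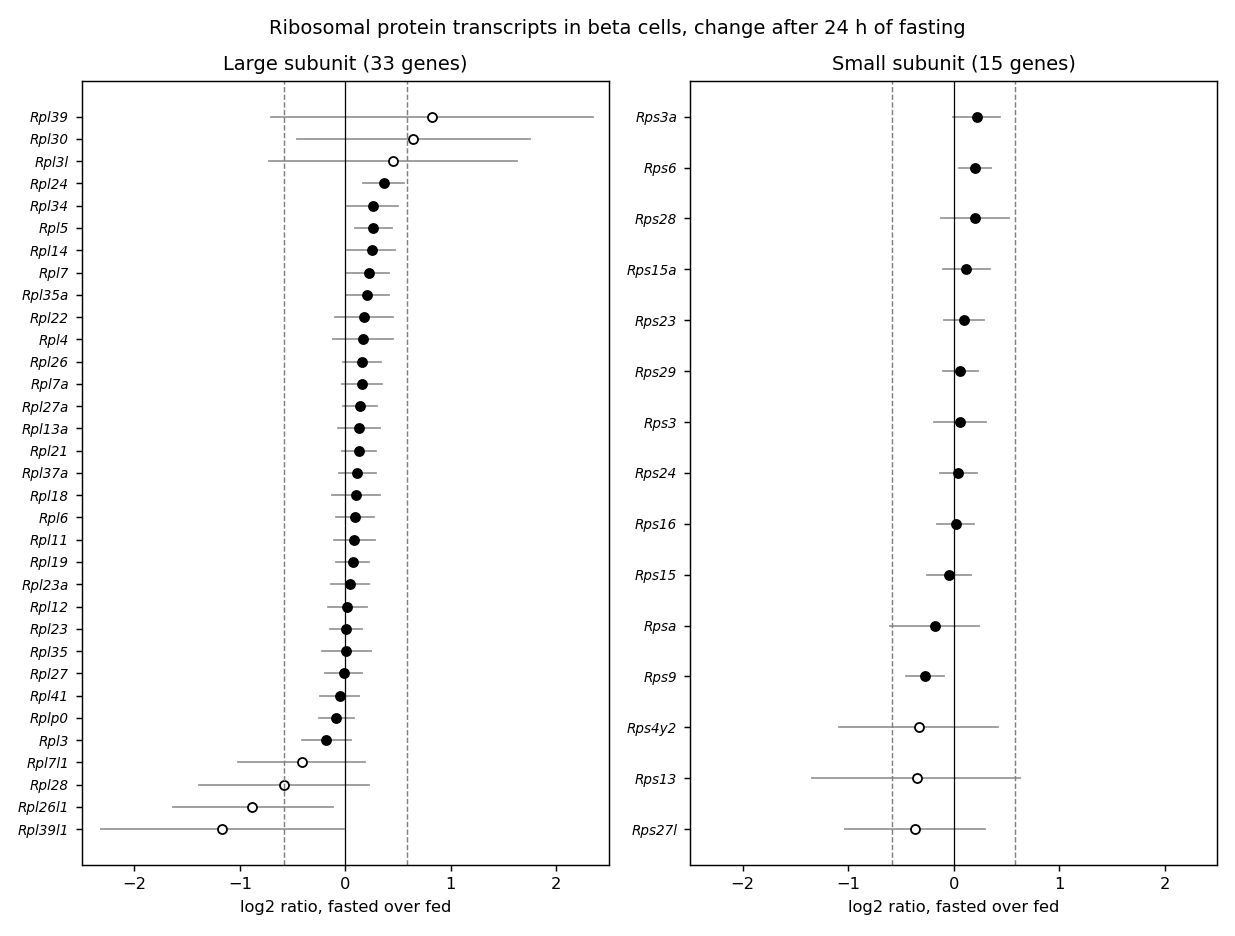
Change of each of the 48 RP genes, given as log2 of fasted over fed beta cells with its 95% confidence interval from limma (3 isolates per state), for the large subunit (left) and the small subunit (right). Filled points have a mean intensity over 500, open points lie under it, and dashed lines mark 1.5-fold; every filled point lies between -0.27 and 0.37, and open points spread from -1.17 to 0.82.

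The fold and p thresholds of the study, at least 1.5-fold with unadjusted p under 0.05, were applied here to another test, limma. With it 2 genes were lower in fasted beta cells and 0 higher, while 8.43% of all probe sets were lower and 2.37% higher. The paper, with its own test, reports a much smaller share of all transcripts as changed, so these shares cannot be set against those of the paper. Both lower genes, Rpl26l1 and Rpl39l1, are dim paralogs outside the core list. At unadjusted p under 0.05 alone, 7 genes were higher (14.6%, against 3.25% of all probe sets) and 3 lower (6.25%, against 11.6%). After Benjamini-Hochberg adjustment over all probe sets 0 members passed at 0.05, as did 0% of all probe sets. The smallest adjusted p of a member was 0.199. The values of the 3 fasted and 3 fed arrays did not overlap for 13 genes in the higher direction (27.1%, against 5.24% of all probe sets) and for 6 in the lower direction (12.5%, against 17.6%).

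The counts at unadjusted p depended on the processing. Without an intensity trend in the variance 1 gene was higher (Rpl24), without fed isolate 1 the count was 2, and without fasted isolates 2 or 3 or fed isolate 3 it was 4, 3 and 3. In these settings, in the same order, 3.08%, 1.97%, 2.56%, 5.77% and 1.92% of all probe sets were higher. With the arrays scaled to their 75th percentile 18 were higher and 0 lower, where 7.1% of all probe sets were higher and 6.1% lower.

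Of the large subunit proteins, Rpl24, which lies at the contact between the subunits, showed the lowest p. Its intensity was 1210, 1279 and 1200 in fasted beta cells, against 900, 1039 and 925 in fed beta cells. All fasted values lay above all fed values. The log2 change was 0.37 ± 0.08 (SE; unadjusted p 0.00359, adjusted p 0.199), or 1.29-fold. Rpl24 passed unadjusted p under 0.05 in all 19 alternative settings, with log2 changes of 0.33 to 0.61. Its adjusted p ran from 0.00753, in a fit with array weights that did not converge, to 0.547. Its window above holds a run of 6 pyrimidines, shorter than the median of the RP genes.

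Rpl5 binds 5S ribosomal RNA and carries it into the large subunit, and free Rpl5 can restrain the p53 inhibitor Mdm2. Its intensity was 2686, 2757 and 2907 in fasted beta cells, against 2229, 2288 and 2433 in fed beta cells. The states did not overlap, and the log2 change was 0.26 ± 0.07 (SE; unadjusted p 0.00868, adjusted p 0.235). Rpl5 passed unadjusted p under 0.05 in 18 of 19 alternatives, the exception being the fit without an intensity trend (p 0.1). Rpl11, its partner in the 5S particle, had 1957, 2211 and 2249 in fasted beta cells, against 1926, 2041 and 2075 in fed beta cells. These ranges overlapped, with a log2 change of 0.08 (unadjusted p 0.334). Rpl5 and Rpl11 were not tested against each other.

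The other large subunit genes that were higher at unadjusted p under 0.05 changed by 1.2-fold or less and lost this p on leaving out single arrays. Rpl34 had 1989, 1879 and 1801 in fasted beta cells, against 1402, 1725 and 1625 in fed beta cells (log2 0.26, p 0.0366, adjusted p 0.311). Rpl14 had 1110, 1049 and 988 in fasted beta cells, against 817, 977 and 863 in fed beta cells (log2 0.25, p 0.0375, adjusted p 0.313). The states did not overlap for either gene, and fed isolate 1 was the lowest array for both. Rpl7 had 2077, 2285 and 2106 in fasted beta cells, against 1742, 1990 and 1841 in fed beta cells (log2 0.22, p 0.0353, adjusted p 0.309). Rpl35a, a gene mutated in some patients with Diamond-Blackfan anemia, had 1744, 1926 and 1714 in fasted beta cells, against 1479, 1673 and 1503 in fed beta cells (log2 0.21, p 0.0457, adjusted p 0.329). Without fed isolate 1 the log2 change was 0.17 for Rpl34 (p 0.102), 0.19 for Rpl14 (p 0.121), 0.17 for Rpl7 (p 0.116) and 0.18 for Rpl35a (p 0.137).

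The brightest large subunit genes did not all move one way. Rpl26 had 3321, 3498 and 3311 in fasted beta cells, against 2836, 3203 and 3053 in fed beta cells (log2 0.16, p 0.0748). Rpl7a had 3077, 3305 and 3032 in fasted beta cells, against 2607, 2929 and 2901 in fed beta cells (log2 0.16, p 0.0867). Both were without overlap in the higher direction. Rpl3, which lies close to the site of peptide bond formation, had 2518, 2989 and 3034 in fasted beta cells, against 3153, 3128 and 3382 in fed beta cells. Here every fasted value was below every fed value, with a log2 change of -0.18 (p 0.1) that became 0.06 with the arrays scaled to their 75th percentile. Rplp0, the base of the acidic stalk that recruits elongation factors, had 1406, 1488 and 1514 in fasted beta cells, against 1617, 1491 and 1571 in fed beta cells. Its ranges overlapped (log2 -0.09, p 0.256), and the sign turned under all 3 other scalings of the arrays. The other bright large subunit genes (Rpl4, Rpl6, Rpl12, Rpl13a, Rpl18, Rpl19, Rpl21, Rpl22, Rpl23, Rpl23a, Rpl27, Rpl27a, Rpl35, Rpl37a and Rpl41) had log2 changes between -0.05 for Rpl41 and 0.18 for Rpl22. None of them passed unadjusted p under 0.05, the lowest being 0.0837 for Rpl27a, and fasted values lay without overlap above fed values for Rpl21, Rpl27a and Rpl37a. Over the 26 large subunit genes brighter than 500, log2 changes ran from -0.18 to 0.37 with a median of 0.12.

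Of the small subunit proteins, Rps6, the target of S6 kinase downstream of mTORC1, had 2927, 3034 and 2950 in fasted beta cells, against 2557, 2530 and 2657 in fed beta cells. The states did not overlap, and the log2 change was 0.20 ± 0.06 (SE; unadjusted p 0.0155, adjusted p 0.27). It passed unadjusted p under 0.05 in 16 of 19 alternatives, missing it without the intensity trend (p 0.173), without fasted isolate 3 (p 0.059) and without fed isolate 1 (p 0.0511). The array reads the Rps6 transcript and says nothing of phosphorylation of the protein. Rps3a had 2315, 2604 and 2348 in fasted beta cells, against 1924, 2288 and 2051 in fed beta cells. All fasted values were higher, with a log2 change of 0.22 (p 0.0569).

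Rps9, a small subunit protein that binds early during assembly, went the other way. Its platform gene number is not among the current RefSeq genes, so the pseudogene check could not be made for it. The Rps9 intensity was 914, 962 and 980 in fasted beta cells, against 1097, 1221 and 1130 in fed beta cells. Every fasted value was lower, with a log2 change of -0.27 ± 0.07 (SE; unadjusted p 0.00963, adjusted p 0.244). It passed unadjusted p under 0.05 without any one isolate, but it did not with quantile normalization (log2 -0.13, p 0.129), with scaling to the median (log2 -0.09, p 0.394) or to the 75th percentile (log2 -0.03, p 0.815), or without the intensity trend (p 0.097). Rpsa, which is also known as the laminin receptor, had 980, 1520 and 1413 in fasted beta cells, against 1340, 1490 and 1532 in fed beta cells. Fasted isolate 1 was far below the others, and the log2 change of -0.18 (p 0.34) was 0.01 without it. A second Rpsa probe set gave 914, 894 and 768 in fasted beta cells, against 794, 811 and 856 in fed beta cells (log2 0.06). The other bright small subunit genes beside Rps29 (Rps3, Rps15, Rps15a, Rps16, Rps23, Rps24 and Rps28) had log2 changes between -0.04 for Rps15 and 0.20 for Rps28. None of them passed unadjusted p under 0.05 by these probe sets, and all overlapped between the states. A dim second Rps24 probe set had 6.01, 9.11 and 16.6 in fasted beta cells, against 28, 16.3 and 22 in fed beta cells (log2 -1.15, p 0.0507). The mean of both Rps24 probe sets gave -0.55 (p 0.026).

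**Figure D2:**
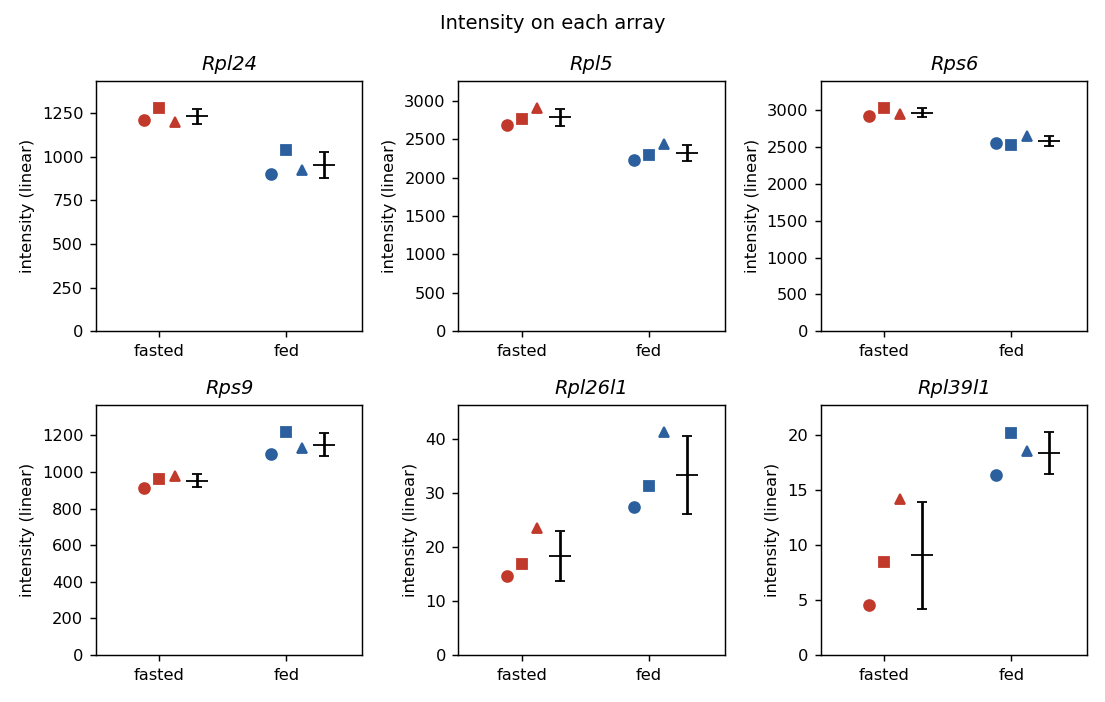
Linear intensity of Rpl24, Rpl5, Rps6, Rps9, Rpl26l1 and Rpl39l1 on each array, fasted (red) left of fed (blue), with circles, squares and triangles for isolates 1, 2 and 3 and a bar for the mean ± SD (n = 3 each). Fasted values lie above fed values for Rpl24, Rpl5 and Rps6 and below them for Rps9, Rpl26l1 and Rpl39l1, whose axes end far lower for the last 2 genes.

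The 10 dim members differed from the bright ones and lay nearer to all probe sets. Their median log2 change was -0.36, against -0.20 for all probe sets. Of the 10, 7 were negative, where 65.4% of all probe sets were. Their median residual SD was 0.44, against 0.43. Rpl26l1, a close copy of Rpl26, had 14.6, 16.8 and 23.5 in fasted beta cells, against 27.4, 31.3 and 41.4 in fed beta cells. All fasted values were lower (log2 -0.88 ± 0.31, SE; unadjusted p 0.0294, adjusted p 0.294). Rpl39l1, which the platform names as a paralog of Rpl39, had 4.57, 8.42 and 14.2 in fasted beta cells, against 16.4, 20.2 and 18.6 in fed beta cells. These also did not overlap (log2 -1.17 ± 0.48, SE; unadjusted p 0.0489, adjusted p 0.334). Rpl26l1 lost unadjusted p under 0.05 on leaving out fasted isolate 1 or 2 or fed isolate 2 or 3 (p 0.0588 to 0.115), and Rpl39l1 on leaving out any isolate but fasted isolate 3 (p 0.0886 to 0.123). Both lay near the middle of all probe sets in brightness, at percentiles 55.9 and 40.2.

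The other 4 members outside the core list did not pass unadjusted p under 0.05. Rpl7l1, an Rpl7 relative that acts in ribosome assembly, had 60.8, 107 and 112 in fasted beta cells, against 120, 122 and 118 in fed beta cells. No values overlapped (log2 -0.41, p 0.143), and fasted isolate 1 lay far below the other arrays. Without that isolate the change was -0.13. A second Rpl7l1 probe set gave a log2 change of -0.36 (p 0.111). Rps27l, a relative of Rps27 that p53 induces in human cells, had 49.9, 74 and 99.9 in fasted beta cells, against 104, 95.9 and 79.3 in fed beta cells (log2 -0.37, p 0.226). Without fasted isolate 1 its change was -0.11, and without fasted isolate 3 it was -0.61 (p 0.0477). Rpl3l, which in mouse is the striated muscle form of Rpl3, was at 7.76, 14.8 and 4.98 in fasted beta cells, against 4.98, 8.92 and 5.04 in fed beta cells. Rps4y2 had a mean of 45 ± 16 in fasted beta cells and 54.9 ± 9.82 in fed beta cells (SD, n = 3 each), with overlap.

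The 4 remaining dim probe sets carried names of core RPs that every cell uses. Rpl39 had 31, 6.72 and 15.9 in fasted beta cells, against 5.96, 8.31 and 12.1 in fed beta cells. Rpl30 had 1.92, 10.8 and 8.44 in fasted beta cells, against 4.13, 4.55 and 4.14 in fed beta cells, and its first value lay under the floor of 3.27 that was set for all values. Rpl28 had 7.28, 4.99 and 8.59 in fasted beta cells, against 12.1, 8.68 and 10 in fed beta cells (log2 -0.58, p 0.127). Rps13 averaged 12.5 ± 4.56 in fasted beta cells and 15.5 ± 3.61 in fed beta cells (SD, n = 3 each). Whether these probe sets read the mature transcript was not tested, and 0 of the 4 passed unadjusted p under 0.05 in the fit as reported. With all isolates, Rpl28 passed it with the floor at the 25th percentile (log2 -0.37, p 0.0443). Rpl28 and Rpl30 also passed it with array weights, a fit that did not converge. On leaving out 1 isolate the change of Rpl30 reached 1.16 (without fasted isolate 1, p 0.00367) and that of Rpl39 reached 1.40 (without fasted isolate 2, p 0.0466). A dim second probe set could also differ from the first. The second Rpl7 probe set had 67, 106 and 97.8 in fasted beta cells, against 118, 117 and 101 in fed beta cells (log2 -0.34, p 0.142), and the mean of both Rpl7 probe sets gave -0.06. RP genes have many near-identical processed copies in the genome, so the signal of a probe set cannot be assigned to 1 gene copy with certainty.

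The large subunit had a median log2 change of 0.11 (33 genes) and the small subunit 0.04 (15 genes). Of the large subunit, 6 genes were higher (18.2%) and 2 lower (6.06%) at unadjusted p under 0.05, and of the small subunit 1 was higher (6.67%) and 1 lower (6.67%), where 3.25% of all probe sets were higher and 11.6% lower. Expressed as the median deviation from the mean of 6 arrays, the large subunit lay at 0.05, 0.09 and 0.04 in fasted beta cells, against -0.11, -0.01 and -0.02 in fed beta cells. The small subunit lay at -0.01, 0.04 and 0.06 in fasted beta cells, against -0.05, 0.03 and -0.04 in fed beta cells. In these deposited values the states did not overlap for the large subunit and overlapped for the small subunit. With quantile normalization the small subunit lay at 0.07, 0.03 and 0.05 in fasted beta cells, against -0.11, 0.01 and -0.09 in fed beta cells, and it did not overlap there or with the arrays scaled to their 75th percentile. The difference of large minus small subunit was 0.05, 0.05 and -0.02 in fasted beta cells, against -0.06, -0.03 and 0.02 in fed beta cells, which overlapped. With quantile normalization it was 0.06, 0.09 and 0.01 in fasted beta cells, against -0.06, -0.02 and 0.00 in fed beta cells, without overlap. No test was made of this difference, because the symbol rule, which uses no values, was set with earlier results of these data known.

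Among members brighter than 500, the large subunit (26 genes) had a median of 0.12 and the small subunit (12 genes) 0.06. Over these genes the difference of large minus small subunit was 0.03, 0.04 and -0.01 in fasted beta cells, against -0.05, -0.04 and -0.03 in fed beta cells, without overlap. Over all 48 members, bright and dim, leaving out fasted isolate 3 gave a small subunit median of -0.01 and a difference between subunits of 0.14. The 36 probe sets with several symbols, which share no probe set with the members, had a median log2 change of 0.11. Of these 29 were positive, where 34.6% of all probe sets were. At unadjusted p under 0.05, 4 were higher (11.1%, against 3.25% of all probe sets) and 3 lower (8.33%, against 11.6%). They come from the same arrays.

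**Figure D3:**
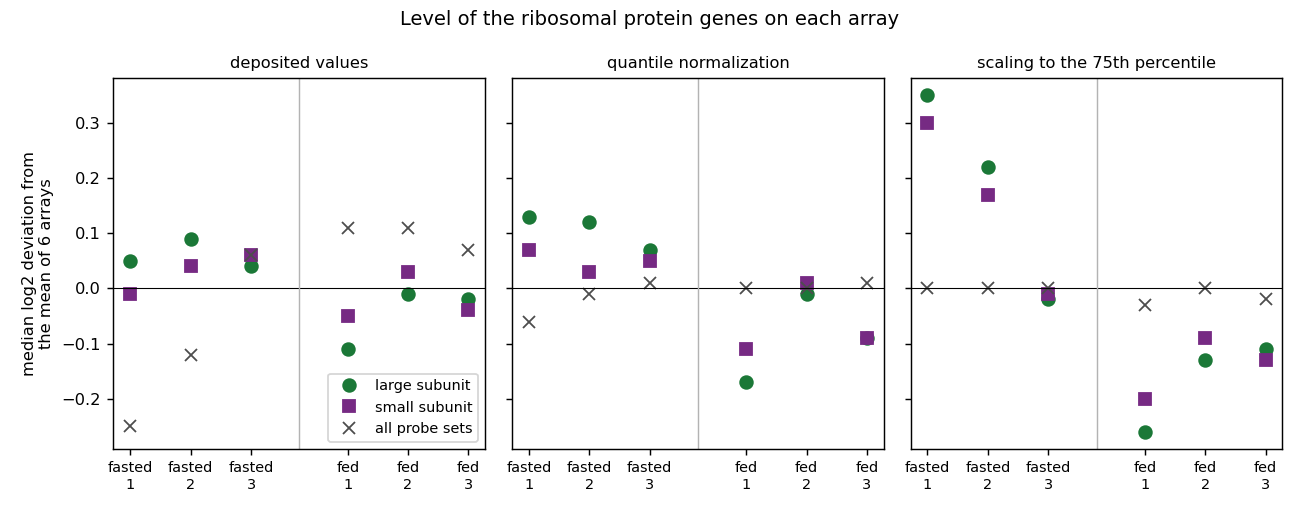
Median log2 deviation from the mean of the 6 arrays for large subunit genes (circles, 33 genes), small subunit genes (squares, 15 genes) and all probe sets (crosses), on each fasted array (left) and fed array (right), for the deposited, the quantile normalized and the 75th percentile scaled values. The crosses of fasted isolates 1 and 2 lie at -0.25 and -0.12 in the deposited values, and the RP medians spread out when the arrays are scaled to remove this.

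The scaling of the arrays set the size of the RP change. In the deposited values, the median of all probe sets lay at -0.25, -0.12 and 0.06 on the fasted arrays, against 0.11, 0.11 and 0.07 on the fed arrays. With the arrays scaled to their 75th percentile, the RP median change was 0.33 while that of all probe sets was 0.01, and with quantile normalization these were 0.19 and -0.02. The RP median lay 0.29 above that of all probe sets in the deposited values, and 0.21 above it after quantile normalization. The RP genes made up 2.99, 2.9 and 2.72% of the summed intensity in fasted beta cells, against 2.33, 2.52 and 2.48% in fed beta cells. Which scaling is closer to the amount of RNA per cell was not tested. In such bulk samples fewer cells of a type and less RNA per cell cannot be told apart.

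Single arrays contributed unevenly. Of the 38 members over 500, fed isolate 1 gave the lowest of the 6 values for 19 and fasted isolate 2 the highest for 17. The same count was not made for other probe sets. Spiked bacterial and phage controls had median log2 deviations from the mean of 6 arrays of 0.05, -0.15 and -0.20 on the fasted arrays. On the fed arrays these were 0.37, -0.03 and -0.01, so fed isolate 1 stood apart there too. The part of this in the RP values was not tested. Other bright transcripts gave other values. Of the 1001 probe sets over 500 that are no member, 28.7% had unadjusted p under 0.05 in the lower and 7.09% in the higher direction, and their median was -0.11. Of the 38 bright RP genes these shares were 2.63% and 18.4%, and the median was 0.10. The split at 500 was chosen after the values were seen, and the difference was not tested.

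Transcripts that share the TOP motif or serve the ribosome gave mixed values. Of 28 listed TOP transcripts other than RPs, 20 were measured, with a median log2 change of 0.08 (0.01 without fasted isolate 2, 0.13 without fasted isolate 1). Past 1.5-fold and unadjusted p under 0.05, 1 was lower (5%, against 8.43% of all probe sets) and 1 higher (5%, against 2.37%). Eif3f, a subunit of an initiation factor, had 804, 513 and 490 in fasted beta cells, against 341, 391 and 347 in fed beta cells (log2 0.71, p 0.0114, adjusted p 0.254). Gas5, a non-coding RNA that hosts small nucleolar RNAs, had 101, 129 and 138 in fasted beta cells, against 202, 204 and 164 in fed beta cells (log2 -0.64, p 0.0073, adjusted p 0.226). These states did not overlap for either gene. Rack1, a scaffold protein on the small subunit outside the symbol rule, had 1395, 1314 and 1376 in fasted beta cells, against 1206, 1275 and 1296 in fed beta cells (log2 0.11, p 0.137).

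Genes that build ribosomes had mostly negative changes, where 65.4% of all probe sets were negative. Of 113 listed ribosome assembly factors, 107 were measured, with 86 negative and a median of -0.32, against -0.20 for all probe sets. Past 1.5-fold and unadjusted p under 0.05, 18 were lower (16.8%, against 8.43% of all probe sets) and 0 higher. Heatr1, needed for ribosomal RNA transcription and processing, had 6.67, 9.3 and 11.3 in fasted beta cells, against 32.1, 27.4 and 31.4 in fed beta cells (log2 -1.77, p 0.00151, adjusted p 0.176). Rpf2, which brings the 5S particle with Rpl5 into the large subunit, had 42.2, 55.1 and 65.8 in fasted beta cells, against 97.4, 98.7 and 102 in fed beta cells (log2 -0.89, p 0.00292, adjusted p 0.193). Gnl2, a nucleolar GTPase of large subunit export, had a log2 change of -1.06 (p 0.00717), and Rrp1b, a nucleolar protein, -0.60 (p 0.0084). For each of these 4 genes all fasted values were below all fed values. Assembly factors are much dimmer than RPs, with a median intensity of 72.4 against 1665, and their median became -0.16 with quantile normalization and -0.08 with the arrays scaled to their 75th percentile.

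RNA polymerase I and its factors, which make the large ribosomal RNAs, had a median of -0.26 over 23 of 24 listed genes, near the -0.20 of all probe sets. Of the 23, 18 were negative, where 65.4% of all probe sets were. Past 1.5-fold and unadjusted p under 0.05, 3 were lower (13%, against 8.43% of all probe sets) and 0 higher. Myc, a transcription factor that drives ribosome synthesis, had 34, 71.7 and 66.1 in fasted beta cells, against 113, 125 and 138 in fed beta cells (log2 -1.20, p 0.00668, adjusted p 0.223). Polr2l, a small subunit shared by the nuclear RNA polymerases, had 455, 432 and 451 in fasted beta cells, against 726, 586 and 808 in fed beta cells (log2 -0.65, p 0.00197). Taf1d, of the polymerase I promoter factor, changed by -0.76 (p 0.0205). The states did not overlap for these 3 genes. The 73 mitochondrial RPs had a median of -0.35, with 11 lower (15.1%) and 0 higher.

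Factors that use or watch the ribosome stood between these lists. Of 49 listed initiation and elongation factors 45 were measured, with a median of -0.14, 4 lower (8.89%, against 8.43% of all probe sets) and 1 higher (2.22%, against 2.37%), shares close to those of all probe sets. Eif4g1, the scaffold that joins the cap to the ribosome, had 143, 160 and 160 in fasted beta cells, against 314, 275 and 331 in fed beta cells (log2 -0.99, p 7.90e-05, adjusted p 0.155). Eif5b, which joins the subunits, changed by -0.95 (p 0.00279), and Eif4g3, a relative of Eif4g1, by -0.93 (p 0.0138). Of 22 listed ribosome-bound factors 16 were measured, with a median of -0.20, 1 lower (6.25%) and 0 higher. The lower one was Nemf of ribosome quality control (log2 -0.60, p 0.00401). Of 18 listed regulators of TOP translation 15 were measured, with a median of -0.16, 1 lower (6.67%) and 1 higher (6.67%). Eif4ebp1, which blocks cap-dependent initiation when mTORC1 is inactive, had 226, 167 and 137 in fasted beta cells, against 96.8, 98 and 97.1 in fed beta cells (log2 0.83, p 0.00443, adjusted p 0.208). Rptor, the mTORC1 subunit that binds it, had 33.1, 65 and 52.6 in fasted beta cells, against 94, 78.2 and 75 in fed beta cells (log2 -0.76, p 0.0307). No test was made of one list against another, and the lists share genes (Eif3f stands in 2 of them).

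**Figure D4:**
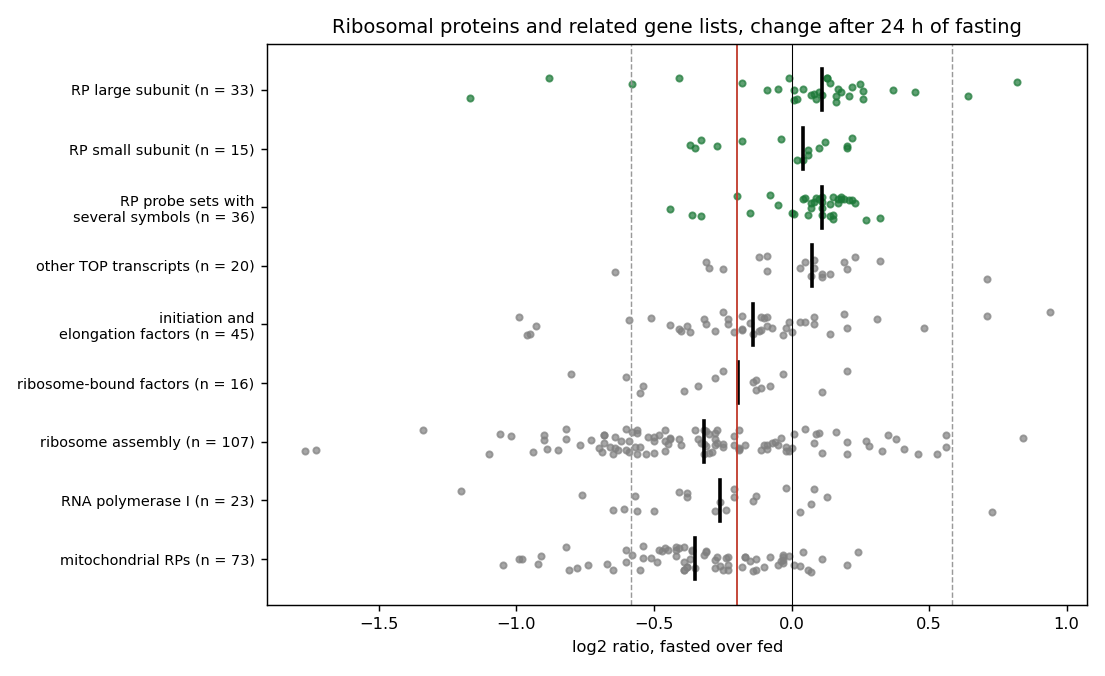
Log2 ratio of fasted over fed beta cells for each gene or probe set (points) of the RP lists (green) and of related lists (grey), with the median of each list as a black bar, the median of all probe sets (-0.20) as a red line and dashed lines at 1.5-fold. The RP medians lie at 0.11, 0.04 and 0.11, and those of assembly factors and mitochondrial RPs at -0.32 and -0.35.

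Markers of other cells were measured on the same arrays. The 7 measured of 10 beta cell markers summed to 22725 to 24166 in fasted beta cells, against 23603 to 24768 in fed beta cells, with 0 past 1.5-fold and unadjusted p under 0.05. The 13 measured of 14 acinar markers summed to 60004 to 69567 in fasted beta cells, against 66052 to 71499 in fed beta cells, also with 0 past the thresholds. Transcripts of acinar cells, which are rich in ribosomes, were thus read on every array. Several beta cell and acinar probe sets read near the highest values of the arrays (7000 to 7629). For its human arrays the paper holds that such signals are probably saturated and not linear, so these sums may understate a difference. The 5 measured of 6 duct markers summed to 463 to 552 in fasted beta cells, against 388 to 440 in fed beta cells, without overlap. Past the thresholds 1 was higher (20%, against 2.37% of all probe sets) and 0 lower. The duct list was not uniform. Krt19 (log2 0.70, p 0.00275), Krt7 (0.37) and Spp1 (0.19) had positive changes, and Muc1 (-0.65) and Cftr (-0.25) negative ones. Sums of the alpha, delta and PP, endothelial, stellate, leukocyte and red blood cell lists overlapped between the states. Beta-actin 3′ over 5′ signal, a measure of RNA length, was 2.4, 1.99 and 1.82 in fasted beta cells, against 1.98, 1.76 and 2.05 in fed beta cells. The part of these measures in the RP values was not tested.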

How the data were processed

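Affymetrix arrays were run on 6 isolates, and 0 columns of other samples were in the table. Per the labels and methods, the authors deposited linear intensities from dChip model-based expression analysis, normalized to the array of median intensity with mismatch background correction; neither a dChip version nor detection calls were stated. Platform annotation gave 1 symbol to 20826 probe sets, several to 436 and none to 9780.

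The 57 control probe sets were left out. Values were floored at the 10th percentile (3.27), taken to log2 and tested by limma 3.58.1 under R 4.3.3 (eBayes with intensity trend, two-sided, 4 residual degrees of freedom, Benjamini-Hochberg over 31042 probe sets). Simulated data served to check it. With 3 isolates against 3 an exact permutation test cannot go below p 0.1. Promoters came from RefSeq (GRCr8).

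Named members were all with unadjusted p under 0.05, the 5 brightest, the 5 dimmest, the 5 with the highest and the 5 with the lowest change, Rplp0, Rpsa, Rps6 and like-named paralogs; for related lists, the 4 largest moderated t past the thresholds and Rack1. All other members and second probe sets fall outside it and were named after their values were seen. The symbol rule for members and the lists were set with earlier results of these data known. Alternatives covered scaling, floor, filter, variance model, replicate block, probe set choice and leaving out each isolate.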

Additional observations from a re-analysis of the deposited data

Results flagged for a closer look

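The control probe set for 5S ribosomal RNA, which belongs to no comparison above, read 117, 59.8 and 71.8 in fasted beta cells, against 33.4, 43.3 and 37.7 in fed beta cells. It was noted because every fasted value lay above every fed value. The means were 83 ± 30.4 and 38.1 ± 4.98 (SD, n = 3 each), a ratio of 2.18 (exact two-sided permutation p 0.1, the smallest that 3 against 3 arrays allow). 5S ribosomal RNA has no poly(A) tail and the labelling was primed with oligo(dT); what this probe set read was not tested.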

How the results depend on the processing

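As reported, 3 RP genes were lower and 7 higher at unadjusted p under 0.05, 2 lower and 0 higher past 1.5-fold as well, and 0 at adjusted p under 0.05. With quantile normalization, scaling to the 75th percentile and scaling to the median, 1, 0 and 1 were lower at unadjusted p. These counts stand against 7.3%, 6.1% and 7.12% of all probe sets. In the same order 11, 18 and 13 were higher, against 6.25%, 7.1% and 5.54% of all probe sets. Past 1.5-fold as well, 1, 0 and 1 were lower (against 4.82%, 4.27% and 5.26%) and 0, 1 and 0 higher (against 4.07%, 4.59% and 3.84%). The RP median was 0.19, 0.33 and 0.27, that of the large subunit 0.21, 0.36 and 0.29, and that of the small subunit 0.14, 0.29 and 0.22. The RP median minus that of all probe sets was 0.21 with quantile normalization, 0.19 with the floor at the 25th percentile, 0.33 among probe sets brighter than the median one and 0.22 among those brighter than the 90th percentile. In these last 2 filters 1 and 0 genes were lower past 1.5-fold, against 12.7% and 7.63% of the probe sets tested. In the stricter one 1 was lower at unadjusted p, against 24.3% of the probe sets tested. There 2 were higher at adjusted p, with fewer probe sets tested and no share of these counted. Without the intensity trend 1 gene was higher, against 3.08% of all probe sets.

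With array weights 20 were higher and 5 lower at unadjusted p, where 12.3% of all probe sets were higher and 33.3% lower. At adjusted p 17 were higher and 4 lower. The share of all probe sets at adjusted p was not counted for this fit, so nothing particular to RPs is read from these 2 counts. Past 1.5-fold and unadjusted p under 0.05, 2 were higher (against 7.95% of all probe sets). That fit stopped before it converged and gave fasted isolate 2 a weight of 11.9, against 0.21 and 0.331 for the other fasted isolates, so its counts rest largely on 1 fasted array. With unequal variances on linear means, 1 gene was lower past 1.5-fold, against 5.23% of all probe sets. Chosen after seeing the data, the several-symbol probe sets gave 0 lower past 1.5-fold and 4 higher at unadjusted p (11.1%, against 3.25% of all probe sets). Members over 500 and core members each gave 0 lower past 1.5-fold and 1 lower at unadjusted p (2.63% and 2.38%, against 11.6% of all probe sets). Leaving out 1 isolate gave 1 to 4 lower (against 6.27 to 21.3% of all probe sets) and 2 to 9 higher (against 1.92 to 5.77%) at unadjusted p. Past 1.5-fold it gave 0 to 3 lower (against 4.66 to 17.9%) and 0 to 1 higher (against 1.52 to 4.95%). RP medians minus that of all probe sets were then 0.19 to 0.38. Small subunit medians were -0.01 to 0.04 and large minus small subunit differences 0.05 to 0.14.

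Signs turned in at least 1 alternative for 14 of 48 genes, 9 of them outside the naming rule. Among these 9, Rps24 went furthest, with 0.04 as reported and -0.55 when its 2 probe sets were averaged, and the other 8 had reported changes between -0.05 and 0.06. Of the genes the rule names, signs turned for Rpl3 (0.06, 75th percentile), Rpl39 (-0.27, array weights), Rpl7 (-0.06, mean of all probe sets), Rplp0 (0.06 with quantile normalization, 0.16 with the 75th percentile, 0.09 with the median) and Rpsa (0.06 with the 75th percentile, 0.06 with array weights, and -0.30 to 0.01 on leaving out 1 isolate, the highest without fasted isolate 1). The cause was not tested. Isolates of the same number in both states did not visibly deviate together (correlations of -0.0196, 0.0992 and -0.0823). Isolates of different number gave correlations of -0.0873 to 0.085. With so few isolates per state such values cannot exclude a shared preparation, so whether the numbers pair the isolates was not settled. With the replicate block 1 gene was lower past 1.5-fold, against 6.59% of all probe sets.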
